A study of Mus musculus with 8 samples.

Results

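Primary mouse embryonic fibroblasts (MEFs) that lacked STING and carried human STING (hSTING) were compared with the same STING-deficient cells carrying the empty retroviral vector pBabe, 9 h after both had received double-stranded DNA (dsDNA) with the transfection reagent Lipofectamine 2000. The comparison rests on 2 of the 8 arrays of the series, the array titled with hSTING and dsDNA and the array titled with pBabe and dsDNA, and covers all 22180 genes measured by a probe set with a single gene symbol. The other 6 arrays were hSTING and vector cells as controls, and cells with the STING variants N154S and R284S, each as a control and with dsDNA. Every cell population was STING-/-, so vector cells with dsDNA had the DNA and the transfection reagent but no STING. Each construct was 1 cell population and each condition 1 array, so no SD, SE or p-value can be given and a difference has no replicate check. The labels do not say which dsDNA was used, nor whether control cells received the reagent without DNA.

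STING is a membrane protein of the endoplasmic reticulum. The enzyme cGAS makes the cyclic dinucleotide cGAMP when it binds DNA in the cytosol, and cGAMP switches STING on. STING then recruits the kinase TBK1, which activates the transcription factor IRF3, and it also feeds into NF-kB. IRF3 and NF-kB act together on the interferon beta gene, and secreted interferon acts back on the cells through its receptor, JAK kinases and a complex of STAT proteins with IRF9, which binds interferon-stimulated response elements (ISREs).

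With dsDNA, hSTING cells had higher signals than vector cells for interferon genes, for most measured interferon-stimulated genes, for lymphocyte-attracting chemokines and for many inflammatory cytokines, and lower signals for enzymes of sterol synthesis. A gene was counted when its signals differed 2-fold or more, a log2 difference of at least 1, and the brighter array lay at or above its own median over named genes. By this rule 479 genes were higher in hSTING cells, 2.16% of those compared, and 160 were lower, 0.721%. The differences ran from -2.40 to 7.81 on the log2 scale with a median of -0.01, and 54 genes were 16-fold or more higher, whereas no gene was that much lower. Signals of 96.8% of genes differed by less than 2-fold. The spread over genes was wider with dsDNA, with a robust SD of 0.33 against 0.19 between hSTING and vector control cells. Where the dimmer signal lay below the array median of 4.42 to 4.47, the fold was computed against that median and is written as at least that size.

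The promoters of 6 of the higher genes are printed with their matches to an ISRE core and an NF-kB motif. These genes were picked by name and printed only with a match, so they do not stand for the higher genes in general. Bases 250 to 51 before the annotated start, as given by RefSeq for assembly GRCm38.p6, are printed 5′ to 3′ in the direction of the gene, with matches in capitals. The motifs searched were the ISRE core, which is GAAA, 2 bases of any kind and GAAA, and an NF-kB motif, which is GGGA, 2 bases of any kind and TTCC. Both strands were searched, and no printed match overlaps another. Ifnb1 and Ifna4 encode interferons, Cxcl10 a chemokine, Gbp5 a guanylate-binding protein, and Ifit1 and Rsad2 antiviral effectors.
Ifnb1, chr4:88522845-88523044, minus strand: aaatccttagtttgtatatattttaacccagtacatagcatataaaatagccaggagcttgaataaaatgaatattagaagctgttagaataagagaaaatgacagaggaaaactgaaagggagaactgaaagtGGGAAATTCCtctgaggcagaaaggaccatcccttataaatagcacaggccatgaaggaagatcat
Ifna4, chr4:88841566-88841765, plus strand: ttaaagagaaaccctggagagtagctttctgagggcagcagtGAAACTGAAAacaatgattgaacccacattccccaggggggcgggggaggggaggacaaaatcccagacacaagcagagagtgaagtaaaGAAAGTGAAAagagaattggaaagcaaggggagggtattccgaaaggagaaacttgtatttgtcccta
Cxcl10, chr5:92348940-92349139, minus strand: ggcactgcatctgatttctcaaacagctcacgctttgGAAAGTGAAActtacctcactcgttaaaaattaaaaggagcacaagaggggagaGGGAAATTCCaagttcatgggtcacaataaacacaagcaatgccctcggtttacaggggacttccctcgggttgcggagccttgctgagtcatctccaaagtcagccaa
Gbp5, chr3:142496684-142496883, plus strand: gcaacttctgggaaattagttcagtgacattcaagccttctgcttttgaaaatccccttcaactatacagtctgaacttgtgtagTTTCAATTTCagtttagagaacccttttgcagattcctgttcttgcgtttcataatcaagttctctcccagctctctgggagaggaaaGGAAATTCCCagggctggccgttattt
Ifit1, chr19:34640639-34640838, plus strand: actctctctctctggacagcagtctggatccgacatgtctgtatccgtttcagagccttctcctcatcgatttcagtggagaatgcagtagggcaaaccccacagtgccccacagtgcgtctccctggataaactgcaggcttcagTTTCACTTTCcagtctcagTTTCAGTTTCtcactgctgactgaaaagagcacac
Rsad2, chr12:26456503-26456702, minus strand: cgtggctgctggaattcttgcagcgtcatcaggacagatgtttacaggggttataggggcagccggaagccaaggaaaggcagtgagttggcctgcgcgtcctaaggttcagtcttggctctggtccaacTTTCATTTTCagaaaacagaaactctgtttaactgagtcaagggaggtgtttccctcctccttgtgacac
Ifnb1 had the NF-kB motif and no match to the ISRE core as searched, and Ifna4, Ifit1 and Rsad2 had the ISRE core alone. Only this exact spacing of GAAA was searched. The Ifnb1 bases before the NF-kB motif hold GAAA at other spacings, so the search does not show that Ifnb1 lacks an IRF element. Among the 366 higher genes with a listed promoter, Cxcl10 and Gbp5 were those with both motifs. The ISRE core stood within 250 bases before to 50 after a listed start in 71 of the 366, or 19.4%, against 3.87% of the 16990 compared genes with a listed promoter. The NF-kB motif stood in 16 of them, or 4.37%, against 1.64%. Of the 20 genes with the largest differences 14 had a listed promoter, of which 5 held the ISRE core and 3 the NF-kB motif. Lower genes had the ISRE core in 4 of 112 promoters, or 3.57%, and the NF-kB motif in 0. With genes of a single listed promoter the ISRE shares were 18.1% of the higher genes and 3.45% of all. A match describes these letters in this window and is not a measured binding site.

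The 20 genes with the largest differences were led by the T cell attractant Ccl5. Ccl5 read 12.70 in hSTING cells and 4.89 in vector cells with dsDNA, a difference of 7.81 or 224-fold. Acod1, whose enzyme makes itaconate, read 10.76 against 3.91 and was at least 81.0-fold higher. Oasl1, of the oligoadenylate synthetase family, read 10.82 against 4.34, at least 84.4-fold. The mitochondrial nucleotide kinase Cmpk2 was 71.5-fold higher at 12.06 against 5.90. The antiviral radical enzyme Rsad2 was 56.9-fold higher at 11.51 against 5.68, and the immunity-related GTPase Iigp1 53.4-fold at 10.68 against 4.94. The other 14, with differences of 4.99 to 6.20, were the Ifi200 genes Ifi204, Ifi205 and Ifi209, the chemokine genes Cxcl9 and Cxcl11, Ifnb1, Ifit1bl1, Ifit3b, Mx2, Gbp9, Gm12250, the alarmin Il33, the ubiquitin ligase Neurl3 and the lipocalin Apod. Of these, Cxcl11 and Mx2 are listed by RefSeq as transcribed pseudogenes.

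**Figure D1:**
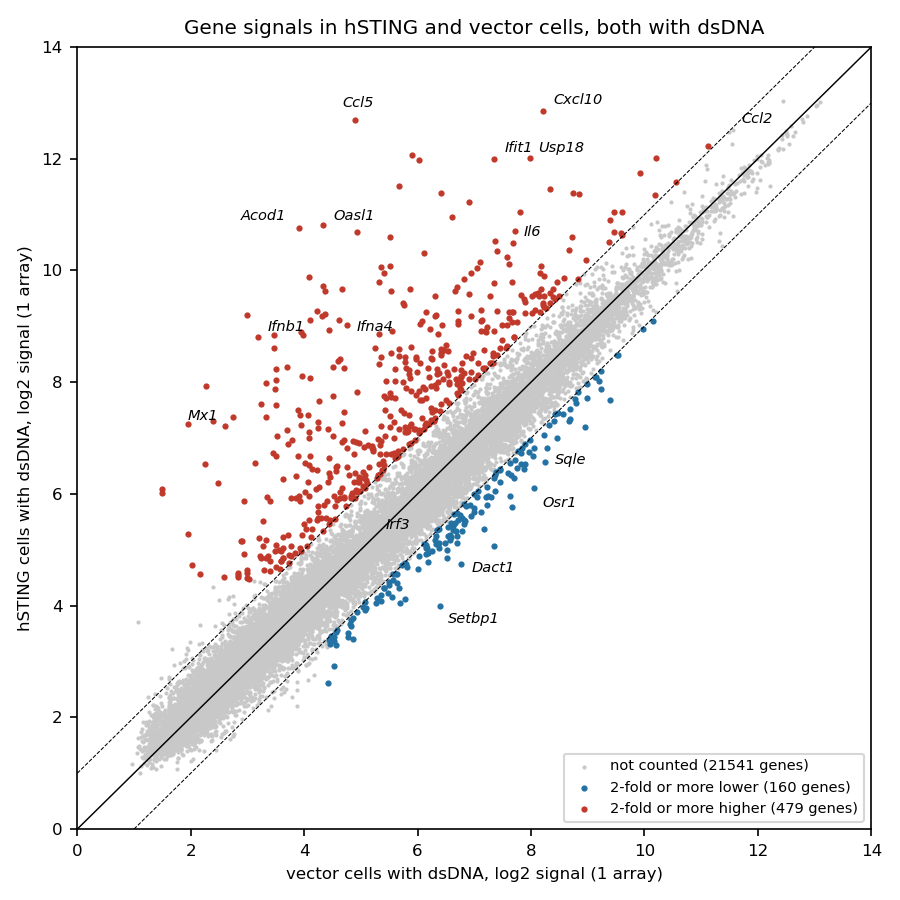
Log2 signals of the 22180 genes in vector cells with dsDNA (horizontal axis) and hSTING cells with dsDNA (vertical axis), 1 array each, with the solid line at equal signals and dashed lines at 2-fold. The 479 higher genes (red) reach up to 7.81 above the line and the 160 lower genes (blue) at most 2.40 below it.

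Of the 20 listed type I and III interferon genes 18 were measured, and 5 of them were 2-fold or more higher in hSTING cells with dsDNA. Ifnb1, the gene of interferon beta, read 8.80 in hSTING cells with dsDNA. It read 3.18 in vector cells with dsDNA, 3.18 in vector control cells and 3.21 in hSTING control cells, all below the array median, so the difference of 5.62 stands as at least 20.8-fold. On the mutant arrays Ifnb1 read 2.82 and 4.95 for N154S and 4.06 and 3.04 for R284S, control and dsDNA in that order. The hSTING array with dsDNA was thus the highest of the 8, and the next read 4.95. Ifna4 read 9.03 against 4.75 in vector cells with dsDNA, 19.4-fold, and lay between 4.75 and 5.37 on the other 7 arrays. Ifna6 was at least 6.15-fold, Ifna1 5.50-fold and Ifna15 2.46-fold higher. Interferon alpha genes are near-identical copies, so signal may be shared among them. The other 13 differed by -0.40 to 2.64, with Ifna2 and Ifna11 past 2-fold but below the brightness limit on both arrays. The interferon lambda genes Ifnl2 and Ifnl3 differed by 0.27 and -0.19.

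Of 24 measured genes that sense cytosolic DNA and pass on the signal 3 were 2-fold or more higher, 12.5% against 2.16% of all genes, and 0 were lower. The list's median difference was -0.05, against -0.01 over all genes, and at 1.5-fold 7 were higher and 2 lower. The kinase Tbk1 read 8.30 against 7.63 and its relative Ikbke 7.34 against 6.45. The transcription factor Irf3 read 5.70 against 6.03, and the sensor Cgas was higher by 0.88. The 3 members counted were Zbp1, a sensor of Z-form nucleic acid (9.79 against 5.32), the nucleotide hydrolase Samhd1 (10.24 against 7.57), and the inflammasome sensor Aim2 (4.58 against 2.84). Aim2 was dim and stands as at least 1.12-fold higher. With the brighter array at or above its 75th percentile 2 of the list were counted. Mouse Sting1 read 4.22 and 3.68, both below the array median. The sources used here do not say which segment was deleted, and no probe set was assigned to human STING, so the labels could not be checked on the gene itself.

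Of 11 measured genes for RNA sensing 9 were counted as higher, 81.8% against 2.16% of all genes, and the list's median difference was 1.59. Between hSTING and vector control cells 8 of the 11 were already counted as higher, with a median of 1.25. In vector cells 4 of the 11 were 2-fold or more higher with dsDNA than in the control. Ifih1, which encodes MDA5 and senses long double-stranded RNA, read 11.39 against 6.42 and was 31.3-fold higher. Tlr3, the endosomal receptor for double-stranded RNA, read 10.31 against 6.11 and was 18.4-fold higher. Ddx58, encoding RIG-I, was 4.38-fold and its regulator Dhx58 6.02-fold higher. Mavs, the adaptor of RIG-I and MDA5, read 7.83 against 8.14.

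Downstream of interferon, 3 of 17 measured receptor and JAK-STAT genes were counted as higher, 17.6% against 2.16% of all genes. The receptor subunits Ifnar1 and Ifnar2 differed by -0.14 and 0.24. Stat2 read 9.77 against 7.34, the kinase Jak2 9.07 against 7.67, and Usp18, which removes ISG15 and restrains the receptor, 12.01 against 7.98. Of 8 measured interferon regulatory factors Irf7 and Irf1 were counted. Irf7, which amplifies interferon alpha expression, was 20.4-fold higher at 10.95 against 6.60, and Irf1 5.10-fold at 7.75 against 5.40.

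Of a list of interferon-stimulated genes 48 were measured, of which 46 were counted as higher and 0 as lower. The remaining pair were Irf9, different by 0.95, and the membrane antiviral gene Ifitm3, different by 0.73 from an already bright 11.54 in vector cells. The list's median difference was 3.61, and 3.11 with signals below the array median set to it, against -0.01 and 0.03 over all genes. By family, all 6 Ifit genes, which bind viral RNA, were counted as higher, with Ifit1 25.1-fold higher at 12.00 against 7.35. Ifit1bl1 was at least 11.4-fold higher, from a dim 2.27 in vector cells. Among 11 oligoadenylate synthetase genes, whose products activate an RNA-degrading enzyme, 7 were higher, with Oas1d, Oas1e, Oas1f and Oas1h dim on both arrays. All 7 measured genes of ISG15 conjugation were higher, among them Isg15 by 3.12 at 11.46 against 8.34, its activating enzyme Uba7 by 3.01 and the ligase Herc6 by 4.11.

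The guanylate-binding proteins and immunity-related GTPases, which attack the vacuoles of intracellular microbes, had 12 of 15 measured members higher and a median of 4.39, or 3.45 with signals below the array median set to it. Gbp7 read 10.08 against 5.51 and Igtp 9.95 against 5.40, 23.8-fold and 23.4-fold. Of 9 Ifi200 genes 7 were counted, with Ifi205 at 11.97 against 6.02. These genes and the Ifit and Oas families hold near-identical copies, and their single values are uncertain to that extent. Of 55 other antiviral effectors 44 were higher and 1, Ifi27, was lower at 6.82 against 8.06. The GTPase gene Mx1 was at least 6.96-fold higher at 7.22 against 2.60, Parp14 26.0-fold at 10.06 against 5.36, and Bst2, which tethers budding virus, 5.74-fold at 11.36 against 8.84. Ifitm1, Ifitm2 and Ms4a4c differed by -0.18 to -0.01.

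**Figure D2:**
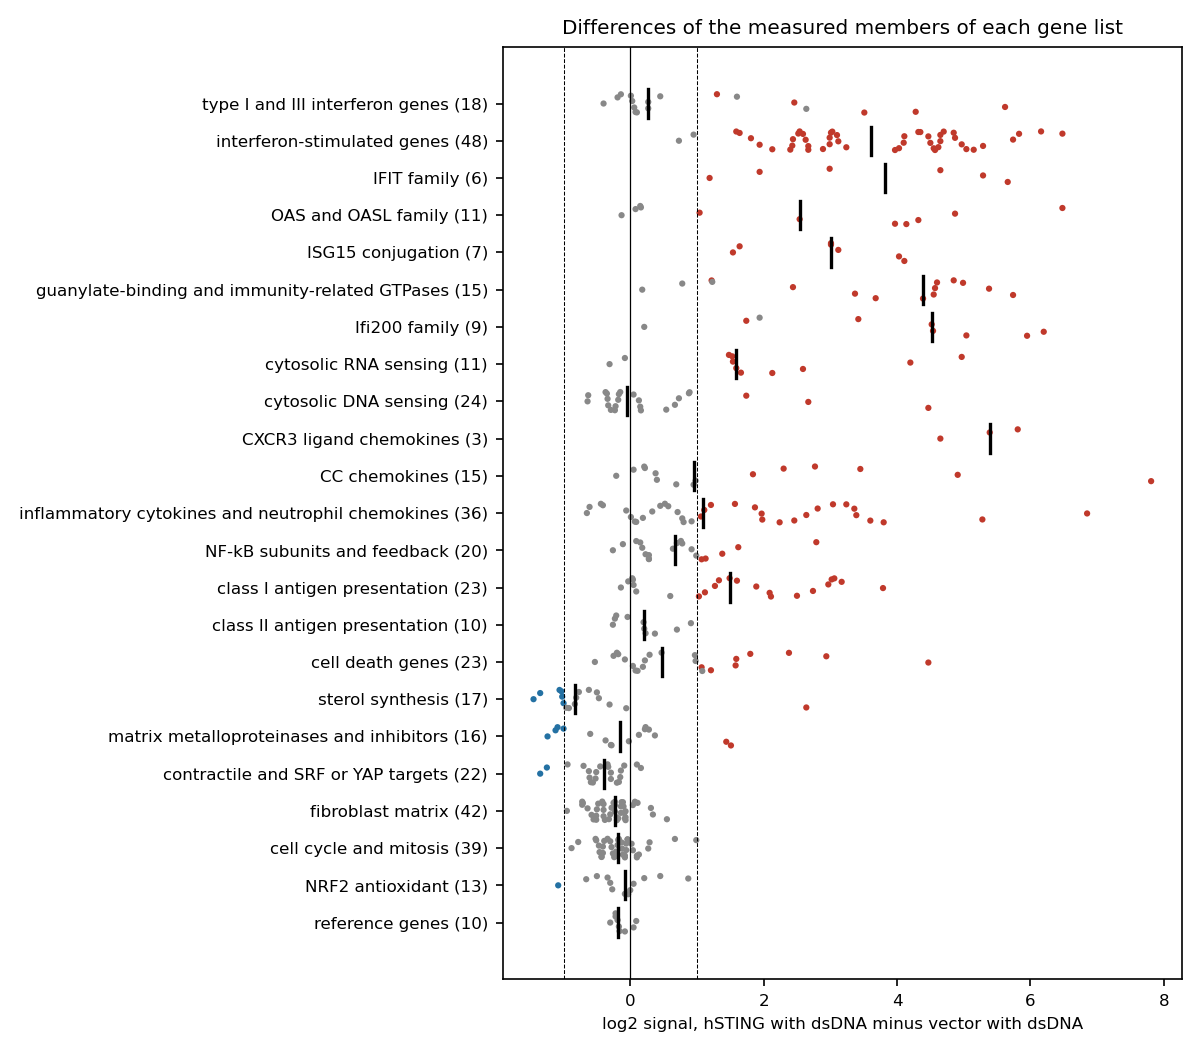
Log2 difference of each measured member of 23 gene lists, hSTING with dsDNA minus vector with dsDNA, with the number of members in parentheses, a black bar at the list's median and dashed lines at 2-fold. Red and blue points are genes counted as higher and lower; the interferon-stimulated list has 46 of 48 red points and the sterol list 6 blue points.

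The ligands of the receptor CXCR3, which recruit activated T cells and natural killer cells, were all higher. Cxcl10 read 12.86 against 8.21 and was 25.1-fold higher, Cxcl9 9.72 against 4.33 and at least 39.4-fold, and Cxcl11 9.89 against 4.08 and at least 44.3-fold. RefSeq lists Cxcl11 as a transcribed pseudogene, and with protein-coding genes only 2 ligand genes were counted. Against 2.16% of all genes, 6 of 15 CC chemokines were counted. Besides Ccl5 these were the monocyte attractants Ccl12 (7.31 against 2.40) and Ccl8 (8.56 against 6.26), the macrophage inflammatory protein genes Ccl3 (6.67 against 3.90) and Ccl4 (7.15 against 3.70), and Ccl20 (8.30 against 6.46). Ccl2 and Ccl7 were bright on both arrays and differed by 0.95 and 0.98, just under 2-fold.

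Of 36 measured inflammatory cytokines and related genes 19 were higher and 0 lower, and their median was 1.09, or 0.77 with dim signals set to the array median. Tnf read 7.50 in hSTING cells and 3.90 in vector cells with dsDNA, at least 8.46-fold. Il6 was 7.01-fold higher at 10.50 against 7.69. The alarmin cytokine Tslp was 13.9-fold higher at 9.67 against 5.87, and Il33 at least 37.3-fold at 9.64 against 4.36. Il1a, Il15, Il18, Lif, Csf2, Il11, Cxcl1, Cxcl2, Cxcl3, Cxcl16, Cx3cl1, Tnfsf10 and Ptx3 were also counted, together with Acod1 and the nitric oxide synthase Nos2, which read 7.66 against 4.27. For Csf2 the counted probe set differed by 3.24 and the other by -0.22. Not all such genes were higher. Il1b read 2.47 against 2.91, both dim, and Cxcl5, Lcn2 and the acute-phase gene Saa3 differed by 0.01, 0.19 and -0.41 from signals of 10.45, 7.41 and 12.03 in vector cells.

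Of 20 measured NF-kB genes 5 were 2-fold or more higher, 25% against 2.16% of all genes. These 5 were feedback inhibitors apart from the subunit Nfkb2. Tnfaip3, which encodes the deubiquitinating enzyme A20, read 8.46 against 5.67 and was 6.92-fold higher. The inhibitors Nfkbie, Tnip1 and Nfkbia were higher by 1.62, 1.38 and 1.13. The subunits Rela, Relb and Rel differed by 0.23 to 0.78. Among 22 immediate early genes Atf3 (9.10 against 6.07), Zfp36 (8.98 against 7.23) and Egr1 (8.34 against 7.30) were counted, while Fos and Jun differed by -0.13 and 0.14.

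Genes that present peptides on MHC class I were higher in 16 of 23 cases, with a median of 1.49. The class I heavy chain H2-K1 read 9.96 against 6.94 and was 8.11-fold higher. The peptide transporter Tap1 was 7.84-fold, the loading factor Tapbp 5.66-fold, the immunoproteasome subunits Psmb10 and Psmb8 8.34-fold and 6.68-fold, and the transactivator Nlrc5 at least 5.82-fold higher. The probe sets of Tapbp disagreed in size, with differences of 0.55 and 2.50. B2m, the light chain, read 13.04 against 12.44. Of 10 measured class II genes 0 were counted, and their transactivator Ciita read 4.29 against 4.06. The class II differences ran from -0.26 to 0.91, so 0 reached 2-fold with or without the brightness limit. Only 2 of the 10 lay at or above the array median in hSTING cells. The general chaperones Calr, Canx and Pdia3 differed by -0.14 to 0.03.

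Among 18 measured surface ligands 8 were higher and 1 lower, against 2.16% and 0.721% of all genes. Cd274, which encodes the inhibitory ligand PD-L1, was 22.6-fold higher at 9.12 against 4.62. The adhesion molecules Vcam1 and Icam1 were 2.99-fold and 2.51-fold higher, and Cd40 and Il15ra 3.46-fold and 4.03-fold. The NKG2D ligand Ulbp1 was at least 2.51-fold lower at 4.12 against 5.78. Against the same background, 8 of 23 measured cell death genes were higher. They included the necroptosis effector Mlkl (10.34 against 7.40), the pore-forming Gsdmd (8.14 against 6.34), the inflammatory caspase Casp4 (9.10 against 6.72) and the pro-apoptotic Bcl2l11 (6.95 against 5.36). The second probe set of Gsdmd differed by 0.85, under 2-fold. Ripk3, Casp8, Bak1 and Mcl1 differed by -0.25 to 0.29. The complement genes Cfb and C2 were at least 2.93-fold and 1.67-fold higher, and the other 11 measured complement genes were not counted.

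Among the 37 lists, sterol synthesis had the most members counted as lower. Of 17 measured members of that list 6 were 2-fold or more lower, against 0.721% of all genes, and 1, Ch25h, was higher. Ch25h is not an enzyme of the synthesis route: it makes 25-hydroxycholesterol, and it read 11.38 against 8.74. The second probe set of Ch25h differed by 0.95, just under 2-fold. The other 16 members of the list all lay below 0, from -1.45 to -0.06, with a median of -0.88. Squalene epoxidase, Sqle, read 6.83 in hSTING cells with dsDNA against 8.28 in vector cells, and 8.05 and 8.15 in the corresponding control cells. Dhcr7, of the last steps, read 5.60 against 6.95, and Hmgcs1, of the first, 8.48 against 9.54. Mvk, Cyp51 and Msmo1 were 2.04-fold, 2.03-fold and 2-fold lower. The regulator Srebf2 differed by -0.47 and Sc5d by -0.06. In control cells the same 16 genes had a median of -0.11 and 0 were counted.

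The 10 lowest genes differed by -2.40 to -1.68. Kif26b, a kinesin gene, was 4.86-fold lower at 5.06 against 7.34, the transcription factor Osr1 3.86-fold at 6.11 against 8.06, and Setbp1 at least 3.84-fold at 3.99 against 6.39. Gas1, a hedgehog co-receptor, was 3.46-fold, the neuronal tubulin Tubb3 3.39-fold and the fatty acid elongase Elovl6 3.29-fold lower. Csgalnact1, of chondroitin synthesis, was 3.73-fold and the proton pump subunit Atp6v0a1 3.20-fold lower. Dact1, a Wnt pathway modulator, was 4.06-fold lower on its brighter probe set, but its other probe set differed by 0.13. Zfp975, at -1.80, was dim.

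Of 22 measured contractile genes and targets of SRF or YAP 2 were counted as lower, Lmod1 (6.68 against 8.03) and the endothelin gene Edn1 (4.94 against 6.19). The list's median difference was -0.40, and 20 members lay below 0. The transcription factor gene Srf read 7.56 against 8.18 and calponin, Cnn1, 10.43 against 11.37. Of 42 fibroblast matrix genes 36 lay below 0, with a median of -0.23 and 0 counted; Col12a1 had the lowest value, -0.95. Of 16 measured matrix-degrading enzymes and inhibitors 2 were counted as higher and 4 as lower, against 2.16% and 0.721% of all genes. The collagenase Mmp13 read 11.04 against 9.60 and Mmp10 10.91 against 9.40, while Adamts5 (5.13 against 6.37), Mmp11, Mmp19 and Adamts1 were 2-fold to 2.36-fold lower. The other probe set of Mmp11 differed by -0.52, and with the mean of all probe sets or quantile normalization 3 of this list were lower. The 10 measured reference genes had a median of -0.18, so a shift of that size in a list does not stand apart from them.

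Several other programs had no or few members past 2-fold. None of 39 cell cycle genes, 17 p53 targets, 22 genes of the ATF4 amino acid response or 26 lysosome and autophagy genes was counted, and their medians were -0.18, 0.10, 0.15 and -0.08. Over all genes 2.16% were higher and 0.721% lower, so a count of 0 in lists of this size is near the background. At 1.5-fold these 4 lists had 2, 2, 3 and 1 members higher and 2, 0, 1 and 1 lower, against 933 and 970 of all 22180 genes. Of 23 unfolded protein response genes Atf3 and Ddit3 were counted, and the chaperone gene Hspa5 read 9.66 against 9.50. Of 13 antioxidant genes that NRF2 drives 1, Gsta4, was lower. Haem oxygenase, Hmox1, was bright with dsDNA in both lines, at 10.67 in hSTING and 10.62 in vector cells, against 9.62 and 9.34 in their controls.

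The labelled cell type was checked against its markers. Fibroblast markers such as Col1a1 (11.11 and 11.36), Vim (12.65 and 12.80) and Prrx1 (10.16 and 10.30) were bright in hSTING and vector cells with dsDNA. Of the 13 fibroblast markers 12 lay below 0, with a median difference of -0.28 and the lowest, -0.97, for the growth factor receptor Pdgfra. Of them 0 were counted, and 1 was with arrays centred on their medians. Of 15 leukocyte markers 0 differed 2-fold, with Ptprc, the pan-leukocyte gene CD45, at 2.67 and 2.56 and Itgam at 3.12 and 3.30, below the array median. In hSTING cells 5 of the 15 lay at or above the median, Cd68 at 6.07, Cd14 at 5.49, Mertk at 5.27, Nkg7 at 4.70 and Lyz2 at 4.50, and these 5 differed from vector cells by -0.14 to 0.30. Epithelial markers had 0 of 9 counted, and of 10 endothelial markers Kdr was counted at 5.03 against 3.93. Across the 8 arrays Pearson's r over probe sets lay between 0.973 and 0.989, and it was 0.975 between the pair compared here.

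**Figure D3:**
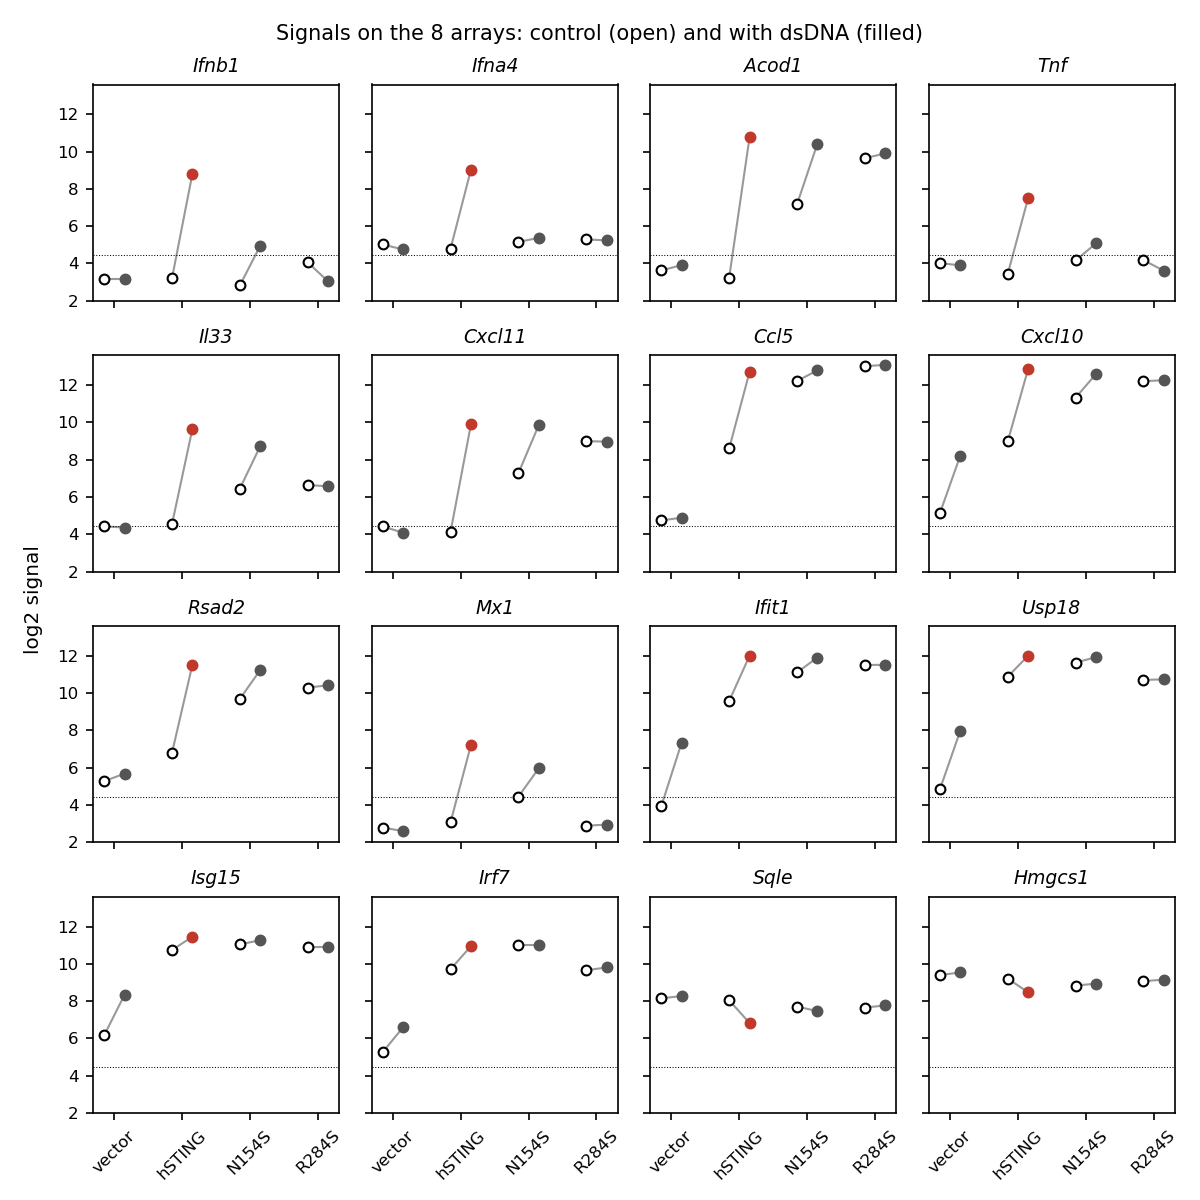
Log2 signals of 16 genes on the 8 arrays, with open points for control cells, filled points for cells with dsDNA (red for hSTING), a line joining the 2 arrays of a construct and a dotted line at the mean of the array medians. Ifnb1, Ifna4 and Tnf are highest in hSTING cells with dsDNA, at 8.80, 9.03 and 7.50, and Sqle is lowest there, at 6.83.

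A further comparison asked which of these differences hSTING and vector cells already showed without added DNA. It uses the control arrays of both lines and so shares no array with the comparison above. In control cells 92 genes were 2-fold or more higher in hSTING cells, 0.415% of those compared, and 4 were lower, 0.018%. Of the 479 genes higher with dsDNA 91 were also higher in control cells, which is 19.0% of the 479 and 98.9% of the 92. The exception was Irf9, with 8.11 against 6.39 in control cells and 8.34 against 7.39 with dsDNA. Sprr2k and Ulbp1 were lower in both, Sprr2k being named after its value was seen. Across genes the differences of the comparisons had a Pearson's r of 0.34, where genes are not independent replicates.

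Of the 91 shared genes 39 were on the interferon-stimulated list, against 7 of the 388 genes counted with dsDNA only. The median signals of the 91 were 4.90 in vector control, 7.34 in hSTING control, 5.74 in vector dsDNA and 9.15 in hSTING dsDNA cells. In the 388 they were 5.43, 5.56, 5.52 and 7.29 on the same arrays, an order that the choice of these genes sets. On arrays that the choice did not use, the 388 had medians of 6.13 in control and 6.72 in dsDNA cells with N154S, and of 6.09 and 6.18 with R284S. In 313 of the 388 the control difference was within 0.5 of 0, which leaving out genes counted in control cells favours. Over all genes the control difference had a robust SD of 0.19, so values this small were common. Some others of the 388, such as Ifi209 and Ifit3b, differed past 2-fold in control cells too, by 1.32 and 1.53. They were not counted there because their hSTING control signals, 4.13 and 3.71, lay below the brightness limit. The ISRE core stood in 42.0% of the 69 shared genes with a listed promoter and in 14.1% of the 297 counted with dsDNA only. The NF-kB motif stood in 2.90% and 4.71%.

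Of the 19 cytokine genes counted with dsDNA 0 were counted in control cells, where Tnf differed by -0.58, Il6 by 0.07 and Tslp by -0.34. The 5 NF-kB genes had control differences between -0.23 and 0.13. Ifnb1 differed by 0.03 and Ifna4 by -0.22 in control cells. By contrast, 40 of the 48 on the interferon-stimulated list were already counted as higher in hSTING control cells, with a median of 2.56. Class I presentation stood between, with 9 of 23 members counted in control cells, H2-K1 among them at 8.87 against 7.26. Families counted there were 6 of 7 ISG15 conjugation, 6 of 11 oligoadenylate synthetase, 7 of 15 GTPase and 29 of 55 other antiviral genes. For the Ifit and Ifi200 genes the counts were 1 of 6 and 3 of 9. Those of the receptor and JAK-STAT genes and regulatory factors were 3 of 17 and 2 of 8. Zbp1 differed by 4.02 in control cells.

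The genes whose difference grew most from control to dsDNA were chosen on the signals as deposited, several of which were dim, so the gain is given also with signals below the array median set to it. For Acod1 the difference went from -0.39 to 6.85, a gain of 7.24, or 6.34 with dim signals set to the median. Cxcl11 gained 6.09 and Ifnb1 5.59, or 5.47 and 4.38 in that way. Il33 gained 5.16 and Neurl3 5.01, or 5.13 and 5.01. Gm12250, the chemokine-binding receptor gene Ccrl2 and Ifi208 depended more on dim signals, with gains of 5.17, 5.01 and 4.91 as deposited and 4.42, 3.85 and 1.6 with the median. Phf11b and Ifi209 gained 4.97 and 4.88, or 4.87 and 4.78. In hSTING control cells these 10 genes read 1.46 to 5.56. In the other direction, 16 of the 91 shared genes had a larger difference in control cells than with dsDNA. Rtp4, a chaperone of chemosensory receptors, differed by 5.29 in control cells and 3.03 with dsDNA, and Usp18 by 6.04 and 4.03. For both, vector cells read higher with dsDNA than without, at 6.82 against 3.96 for Rtp4 and 7.98 against 4.84 for Usp18. The hSTING signals were 9.85 against 9.25 and 12.01 against 10.88. Among genes counted in either comparison, the other 8 of the 10 smallest changes were the lower genes Zfp975, Dact1, Osr1, Setbp1, Kif26b, Chek2, Nynrin and Ttc28, at -1.95 to -1.66. Of these the value of Zfp975 rests on a dim signal and was 0.03 with the median, and that of Setbp1 was -1.37.

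**Figure D4:**
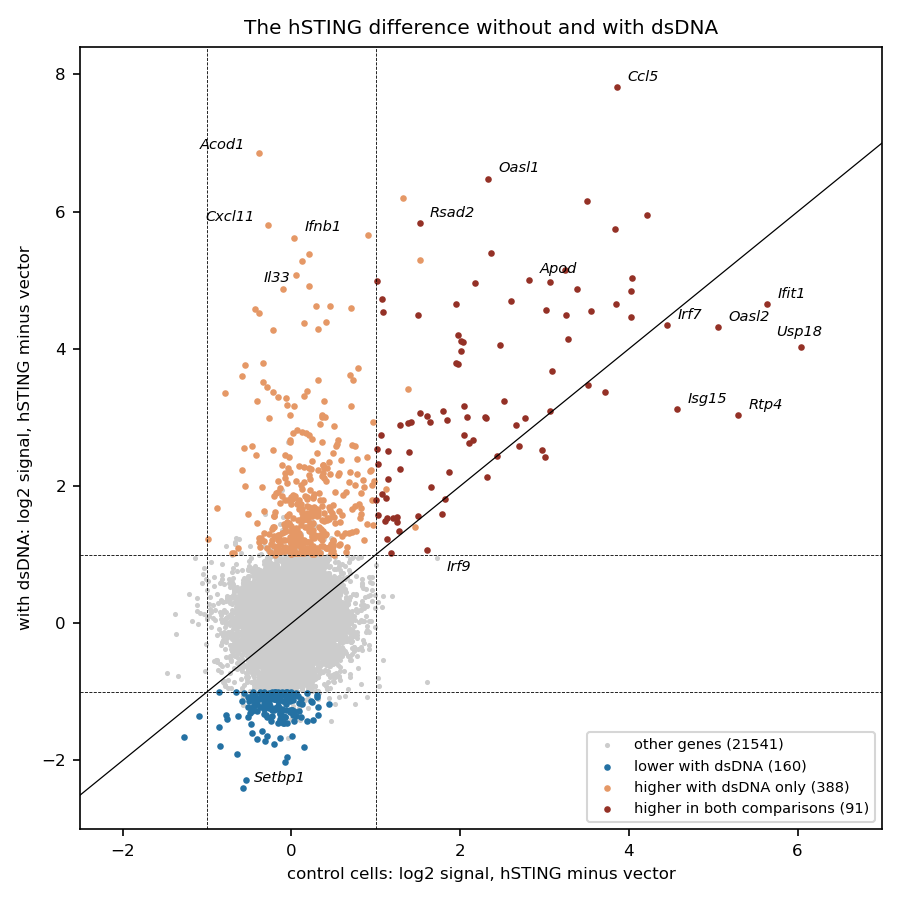
Log2 difference between hSTING and vector cells as controls (horizontal axis) and with dsDNA (vertical axis) for each gene, with the solid line at equal differences and dashed lines at 2-fold. The 388 genes counted as higher with dsDNA only, led by Acod1 at 6.85, lie above the upper dashed line. Of them 313 lie within 0.5 of a control difference of 0, a position that leaving out genes counted in control cells favours. Usp18 and Rtp4 lie below the solid line.

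Vector cells with dsDNA also differed from vector control cells, on 1 array a side and with the reagent in the controls not stated. In vector cells 33 genes were 2-fold or more higher with dsDNA than in the control, 0.149%, and 8 were lower, 0.0361%. Of the interferon-stimulated genes 17 of 48 were among them, as Ifit1 at 7.35 against 3.94, Cxcl10 at 8.21 against 5.13 and Isg15 at 8.34 against 6.17. Ccl5 read 4.89 and 4.74, and Ifnb1 3.18 on both arrays. Of the 13 antioxidant genes 5 were among them, including Hmox1. In hSTING cells 445 genes were 2-fold or more higher with dsDNA than in the control, 2.01%, and 111 were lower, 0.5%. These comparisons share an array with the main comparison and are given beside it for their values only.

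The mutant lines with dsDNA, set against the same vector array, had 349 genes higher and 196 lower for N154S, 1.57% and 0.884%, and 251 and 188 for R284S, 1.13% and 0.848%. The interferon-stimulated list had median differences of 3.61 in hSTING, 3.35 in N154S and 2.20 in R284S cells against that array. For the cytokine list the medians were 1.09, 0.81 and 0.48. For the 16 sterol genes without Ch25h they were -0.88, -0.47 and -0.33. Ccl5 read 12.70, 12.79 and 13.09 with dsDNA in hSTING, N154S and R284S cells, and Acod1 10.76, 10.42 and 9.90. Ccl12 read 7.31 in hSTING cells and 3.35 and 3.12 in the mutants, and Mx1 7.22, 5.97 and 2.95. In Acod1, Ccl12 and Mx1, as in Ifnb1 and Ifna4, the hSTING array was the highest of the 3, whereas in Ccl5 it was the lowest.

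Within the pair of arrays, genes read by several probe sets offer a limited check of the single values. The counts below include the probe set that was counted, which is past 2-fold by choice, so only the other probe sets add information. Of 31 higher genes with several probe sets 27 had every probe set above 0, and 5 had every probe set 2-fold or more higher. Of 11 lower genes with several probe sets 5 had every probe set below 0 and 0 had every probe set 2-fold or more lower. Of the 479 higher genes 451 were protein coding and 8 long non-coding RNA genes, and of the 160 lower ones 152 and 1.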

How the data were processed

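The labels give RNeasy column extraction of total RNA and 300 ng per sample prepared with the GeneChip WT PLUS kit, hybridised to Affymetrix arrays. The submitters' processing notes name Affymetrix Expression Console 1.3.1.187. The deposited values are log2 signals with 2 decimals for 41345 probe sets, as found in the value table, and the sources used here do not say how the authors corrected background and summarised probes. Platform annotation gave 23521 probe sets a single symbol, and 23328 of these matched RefSeq by Entrez ID. Of several probe sets for a gene, that of the highest 8-array mean was used, which left 22180 genes. Differences of log2 signals were taken with pandas 2.3.3 without a test. The counting code was run on a copied array with differences set into bright genes and no noise. That run checks the code and not the error of counts from single arrays.

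Named genes were the 20 highest and 10 lowest counted differences, the members of 37 gene lists, and the 10 largest and 10 smallest changes from control to dsDNA. The comparison and the lists were chosen with earlier results of these data known. Listed genes without a probe set of a single symbol were not analysed here. Promoters came from the RefSeq table. For arrays, their number limits the precision.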

Additional observations from a re-analysis of the deposited data

Results flagged for a closer look

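Probe sets outside the named genes also differed between hSTING and vector cells with dsDNA. Of the 16010 probe sets that the annotation did not list, 204 were 2-fold or more higher and 178 lower, against 101 and 101 between the control arrays. Of the 1814 probe sets with several symbols, 45 were higher and 12 lower, against 16 and 0 between the control arrays. The brightness limit was that used for genes, and these probe sets enter no count above.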

How the results depend on the processing

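With centred arrays, quantile normalization or the mean of all probe sets of a gene, the 38 differences of the highest, lowest and most altered genes kept their sign, as did the 37 list medians except the unfolded protein response (0.02, and -0.01 with centred arrays). With the mean of all probe sets Dact1 was at -0.95 and Nynrin at -1.07, and the interferon-stimulated median was 3.18. The number of higher genes was 933 at 1.5-fold and 265 at 3-fold, and of lower genes 970 and 15, the limit itself setting these counts. With the brighter array at or above its 75th percentile 343 genes were higher, 84 lower and 62 shared with control cells. Under the other alternatives of the 2-fold count the higher genes numbered 433 to 525, the lower 139 to 193, and those shared with control cells 81 to 96; at 1.5-fold and 3-fold 134 and 61 were shared. The share of the control list also higher with dsDNA was 98.9%, but 90.6% with no brightness limit and 80.7% at 1.5-fold. No sterol gene was 3-fold lower. No paired analysis was possible because each group held 1 array. Setting signals below the array median to it, an alternative chosen after seeing the data, moved the gain of Zfp975 from control to dsDNA from -1.95 to 0.03. Signals below the array median bound a fold from below.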
